A study of Mus musculus with 10 samples.

Results

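The 4 libraries taken late in reprogramming medium, on D5 and D7, were compared with the 4 taken early in the same medium, on D1 and D3. These are 8 of the 10 libraries of the series. Membership followed the day given in the sample labels, and the mean of D5 and D7 was set against the mean of D1 and D3 with a term for each day and the replicate number as a block. The D0 libraries, taken at 0 h in the medium, were left out of the comparison and are quoted only for orientation. Every library came from primary mouse embryonic fibroblasts at passage 2, made from E13.5 embryos whose sires carried an Oct4-GFP transgenic allele (CBA/CaJ × C57BL/6J) and whose dams were 129S4/SvJaeJ. All 10 cultures, D0 included, had been infected for 48 h with retroviruses that deliver Jdp2, Sall4, Esrrb and Glis1, and then spent 0, 24, 72, 120 or 168 h (D0, D1, D3, D5 and D7) in a medium called iCD3. The design therefore holds no uninfected culture and no culture kept in another medium, and time in the medium cannot be told apart from time since infection. Each day had 2 replicates, described by the submitters as separate experiments, so each group of the comparison holds 4 libraries.

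Reprogramming turns a differentiated cell into a pluripotent stem cell. Fibroblasts lose their contractile and matrix-secreting programme, take on epithelial traits, divide fast and shift towards glycolysis, and then switch on the self-sustaining network of transcription factors around Oct4 (encoded by Pou5f1), Sox2 and Nanog. Retroviral promoters are commonly silenced once cells become pluripotent, and some germline genes are released from DNA methylation on the way.

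The 8 libraries held 1329377 to 4335931 estimated counts, and the replicate 2 libraries were all shallower (1329377 to 1477281) than the replicate 1 libraries. The mean fragment of the replicate 1 libraries measured 135 to 152 bases against 198 to 202 for those of replicate 2, so the replicate number marks a technical difference as well as an experiment. At these depths 3 counts correspond to 0.692 to 2.26 counts per 1000000 (CPM) of the library total. A level at or below about this limit in 1 library cannot be told from 0. The CPM values that follow are scaled between libraries, which moves the limit slightly in each. The share of counts on mitochondrial messenger RNAs did not separate the groups (mean 4.12% ± 1.14 early against 3.66% ± 0.545 late, SD, n = 4; exact two-sided permutation test p = 0.514). Fibroblast markers remained present late: their summed level, in transcripts per 1000000 (TPM), was 1317 to 2611 in the early libraries and 857 to 1289 in the late ones. The summed level of the pluripotency regulators, a list without the delivered Esrrb and Sall4, was 273 to 603 TPM early and 1099 to 2035 TPM late. These are bulk libraries, so fewer cells of a type and less RNA per cell cannot be told apart in any of the values that follow.

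Of 13203 genes tested with edgeR's quasi-likelihood F test, 3217 passed a Benjamini-Hochberg adjusted p of 0.05 (24.4%): 1699 were higher late (12.9%) and 1518 were lower (11.5%). Members of a gene list are to be read against these shares, and against the median log2 change of 0.02 over all genes tested. The median log2 change was 1.48 among the genes called higher and -1.03 among those called lower. At least 16-fold rises were fitted for 253 called genes and falls of that size for 12. All 4 late libraries lay above all 4 early ones for 1265 genes (9.58%) and below them for 881 genes (6.67%). Without the replicate term 1611 genes were called (968 higher, 643 lower), all of them among the 3217. Leaving out 1 library gave between 1368 genes (without D1 replicate 1) and 4684 (without D5 replicate 2), with 1955 without D7 replicate 1 and 1917 without D7 replicate 2, and 1128 genes were called higher without D3 replicate 1. Replicate 1 alone gave 1306 genes and replicate 2 alone 20, with 1633 at an unadjusted p under 0.05 in replicate 2.

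**Figure D1:**
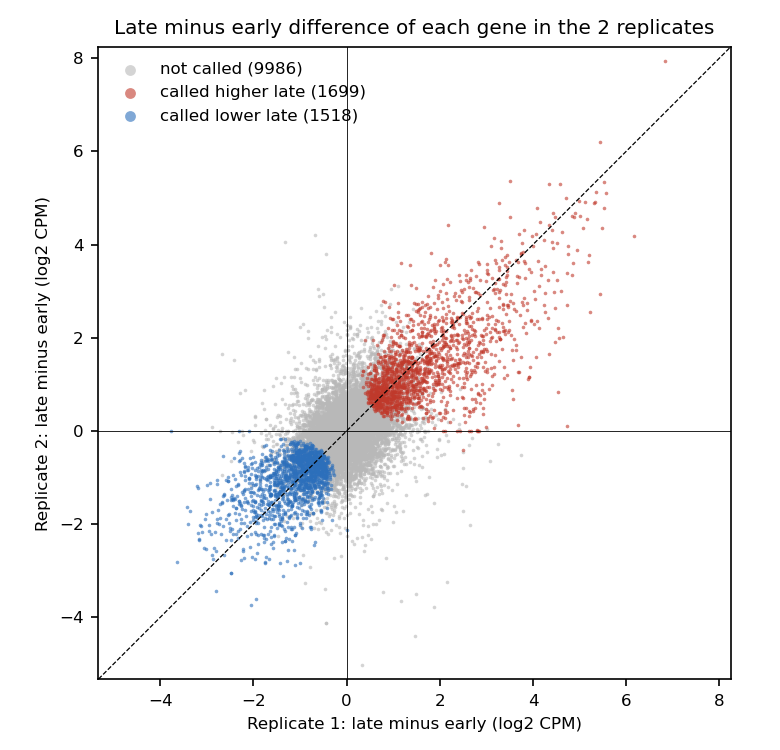
Late minus early difference (mean of D5 and D7 minus mean of D1 and D3, log2 CPM with a prior count of 2) in replicate 1 on the horizontal axis and replicate 2 on the vertical axis, 1 point for each of the 13203 genes tested, with genes called higher in red, genes called lower in blue and the others in grey. Called genes lie along the diagonal in the same direction in both replicates for 1690 of the 1699 higher and 1514 of the 1518 lower genes. The calls were made on these same libraries, so this agreement in direction is largely built in.

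Across genes, the late minus early differences of the 2 replicates had a Pearson correlation of 0.713; genes are not independent replicates. Steps between days were measured in mean log2 CPM with a prior count of 2. The step between D3 and D5 was the largest of the 3 steps for 1097 of the genes called higher (64.6%) and 900 of those called lower (59.3%). Over all genes tested the share was 46.8%. In the difference of the means this step counts in full and the other steps only in part. Genes called on that difference are therefore picked for it, and an excess over all genes tested is built in. D5 replicate 2 was the late library nearest the early ones for 1088 of the 1699 higher genes (64.0%) and 974 of the 1518 lower genes (64.2%). In what follows, 4 early values are given in the order D1 replicate 1, D1 replicate 2, D3 replicate 1 and D3 replicate 2, and 4 late values as D5 replicate 1, D5 replicate 2, D7 replicate 1 and D7 replicate 2. Log2 changes are late minus early with their standard error (SE), and where a gene lost its call without the replicate term, without 1 library or in the pooled-day fit (1 term for D1 with D3 and 1 for D5 with D7, with the block) that adjusted p follows. A direction not mentioned for a list had no called member.

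All 4 delivered factors were lower late (median log2 change -1.47). Jdp2, a leucine-zipper repressor of AP-1 sites, was at 1684, 753, 1519 and 901 CPM early and 439, 563, 339 and 174 CPM late. Every late library lay below every early one (log2 change -1.71, SE 0.25, adjusted p 7.06e-04). Esrrb, an orphan nuclear receptor of the pluripotency network, stood at 2143, 2312, 1934 and 2917 CPM early and 811, 1474, 611 and 580.4 CPM late, and again the groups did not overlap (log2 change -1.51, SE 0.21, adjusted p 5.07e-04). For Sall4, a zinc-finger factor of embryonic stem cells, the values were 2565, 2544, 1629.8 and 3136 and then 930.3, 1396, 759 and 751 CPM (log2 change -1.40, SE 0.21, adjusted p 9.17e-04), with D5 replicate 2 the closest late library to the early ones. Glis1, a Krüppel-like zinc-finger protein, was at 122, 263, 62.7 and 316 CPM early and 44.5, 98.0, 43.1 and 70.9 CPM late. Its groups overlapped, and replicate 2 was above replicate 1 on each day (log2 change -1.43, SE 0.25, adjusted p 0.00214, 0.0676 without the replicate term). Together the 4 transcripts took a mean of 0.613% ± 0.0809 of counts early and 0.232% ± 0.0799 late (SD, n = 4 in each group). The groups did not overlap, with an exact two-sided permutation p of 0.0286, the smallest that 4 against 4 allows, and 0.171 after adjustment over the 6 library measures compared. Permuted within replicate numbers, the exact p was 0.0556, again the smallest possible, so that this design cannot reach 0.05. The difference was -0.381 percentage points in replicate 1 and -0.382 in replicate 2. Reads from the retroviruses and from the cells' own copies of these genes are not separated in the counts.

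**Figure D2:**
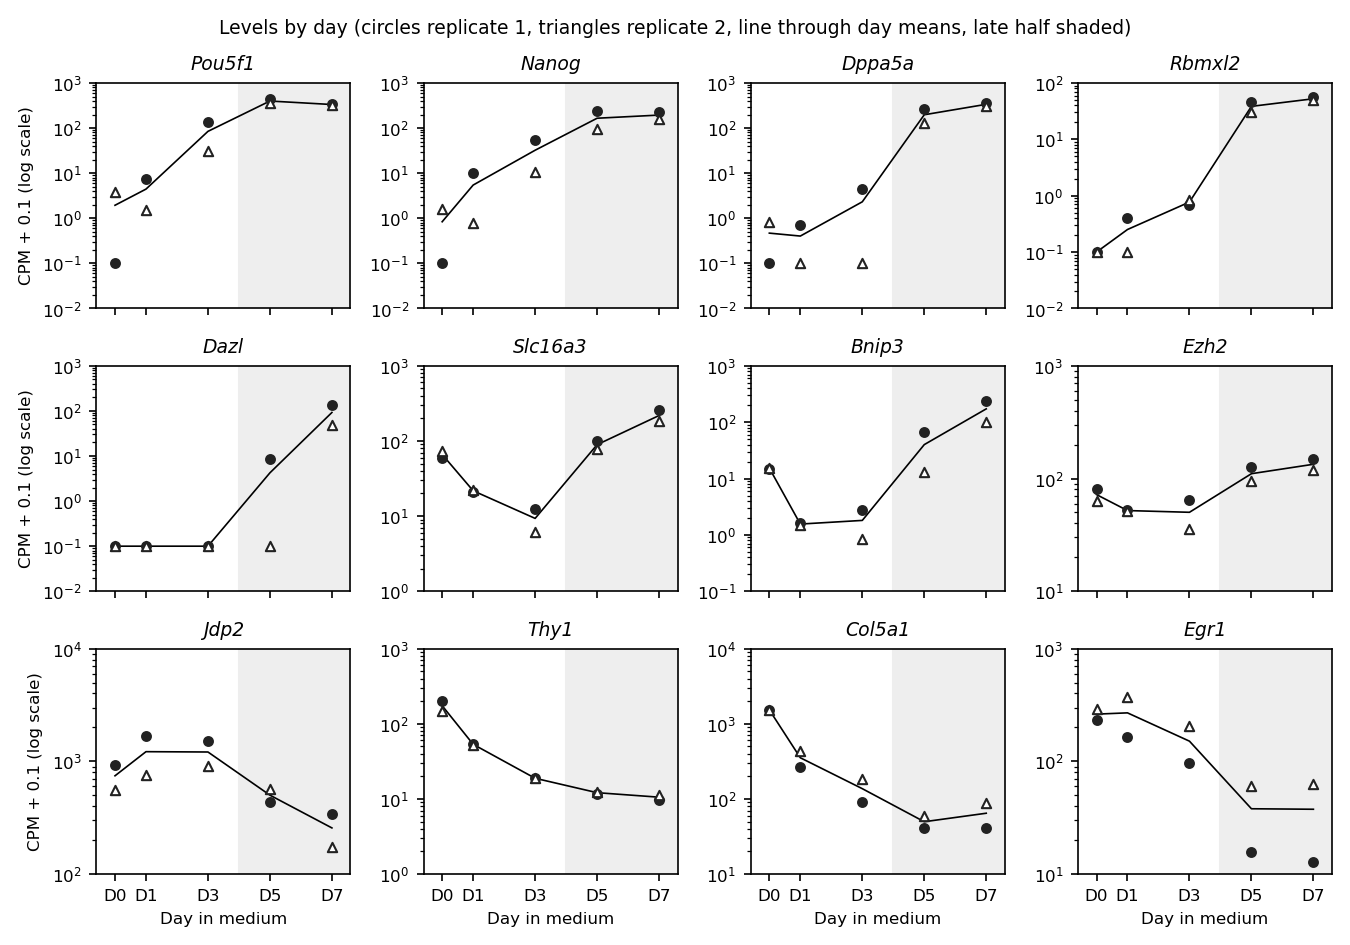
CPM (log scale, with 0.1 CPM added) of 12 genes on D0, D1, D3, D5 and D7, with circles for replicate 1 and triangles for replicate 2, a line through the day means and the D5 and D7 group shaded. Pou5f1, Nanog, Dppa5a, Rbmxl2, Dazl, Slc16a3, Bnip3 and Ezh2 are higher in the shaded group, and Jdp2, Thy1, Col5a1 and Egr1 are lower.

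Of the regulators of the pluripotent state, 26 of 30 tested members were higher late (median log2 change 2.76). Esrrb and Sall4, which were lower late, are counted with the delivered factors and are not in this list. Members at or near 0 early, Tcl1 and Prdm14 among them, passed the filter on low values through the late group alone. Klf5 (log2 change 0.61), Mycn (0.36) and Tbx3 (0.05) did not pass the test. Pou5f1, which encodes Oct4, had its largest step on the log2 scale between D1 and D3. It was at 7.28, 1.40, 138 and 30.9 CPM early and 435, 362, 337 and 329 CPM late, so that even the highest early library lay below the lowest late one (log2 change 4.31, SE 0.37, adjusted p 3.18e-05). Nanog rose from D1 to D3 and again to D5, at 10.01, 0.699, 53.8 and 10.5 and then 237, 93.3, 228 and 160.3 CPM (log2 change 3.85, SE 0.33, adjusted p 3.33e-05). Sox2 was at 90.4, 67.1, 155 and 82.1 CPM early and 203, 158, 209.5 and 143 CPM late. Its groups overlapped and its change was the smallest of this trio (log2 change 0.89, SE 0.18, adjusted p 0.00425, 0.0571 without the replicate term). Tfcp2l1, a naive-state factor downstream of LIF, went from 4.55, 4.19, 41.4 and 18.8 to 250.1, 66.3, 218 and 166 CPM, with D5 replicate 2 the lowest late value (log2 change 3.94, SE 0.30, adjusted p 1.92e-05).

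Other factors of the naive state were followed across the days. Klf2, a Krüppel-like factor of ground-state stem cells, was nearly absent on D1 and intermediate on D3, at 0.910, 0.699, 22.5 and 13.6 CPM, and stood at 109, 83.3, 116 and 127 CPM late (log2 change 4.76, SE 0.27, adjusted p 3.58e-06). Its D0 values, 11.1 and 19.9 CPM, were above those of D1. Klf4 was likewise lower on D1 than on D0 (31.8 and 46.4 CPM) and reached 71.3, 67.9, 65.9 and 55.0 CPM late from 7.89, 22.4, 34.3 and 33.9 CPM (log2 change 1.58, SE 0.27, adjusted p 0.00207). Nr5a2, an orphan nuclear receptor, was at 0 in 3 of the 4 early libraries and at 39.7, 10.8, 35.0 and 12.6 CPM late (log2 change 6.59, SE 0.59, adjusted p 6.79e-05). Prdm14, which restrains DNA methylation in naive cells, had 2 counts over the early group, and its late to early ratio was 53.8 (counting interval 14.6 to 449, adjusted p 6.50e-04). Tcl1 had no count in any early library and 11.4, 8.49, 14.5 and 24.5 CPM late, at least 44.1-fold higher against a floor of 3 counts over the early group (adjusted p 2.94e-04). Folds written as "at least" use that floor throughout, and ratios of genes with 1 to 3 counts in a group are given with an exact 95% interval that covers counting error only. Zfp42, known as Rex1, rose from 0.607, 0, 4.73 and 3.77 to 93.9, 35.5, 105 and 56.3 CPM (log2 change 5.78, SE 0.34, adjusted p 3.58e-06), and Utf1, a chromatin factor of stem cells, from 0, 1.40, 5.92 and 2.26 to 99.3, 74.8, 88.2 and 81.5 CPM (log2 change 5.87, SE 0.40, adjusted p 9.23e-06). Nr0b1 rose as well (log2 change 2.02, SE 0.26, adjusted p 3.61e-04, 0.0611 in the pooled-day fit), and was above 10 CPM in both D3 libraries.

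Genes that mark the later, stable phase of pluripotency rose, with 26 of 28 tested members higher (median log2 change 5.17). Many were at or near 0 early and so passed the filter on low values through the late group alone, which fixes their direction. Dppa5a, an RNA-binding protein of stem cells, had values of 0.607, 0, 4.44 and 0 CPM early and 266, 129, 361 and 313 CPM late (log2 change 7.92, SE 0.42, adjusted p 3.58e-06). Dppa4 (0, 0, 1.48 and 0.753 to 48.4, 23.9, 59.1 and 45.1 CPM) and Dppa2 (0, 0, 7.40 and 1.51 to 54.3, 24.7, 72.5 and 27.2 CPM), a pair that acts together on germline promoters, had no count in either D1 library and were counted in both D3 libraries. Fgf4, a growth factor made by pluripotent cells, was found in 1 early library and all late ones, at 0, 0, 1.18 and 0 and 38.9, 16.2, 40.5 and 35.8 CPM (log2 change 7.46, SE 0.58, adjusted p 3.18e-05). Alpl, the alkaline phosphatase used as a colony stain, rose from 3.03, 5.59, 19.2 and 10.5 to 153, 119.6, 225 and 166 CPM (log2 change 4.39, SE 0.26, adjusted p 3.58e-06). L1td1, derived from a LINE-1 transposon, rose from 3.03, 0, 43.5 and 12.8 to 253, 94.1, 195 and 89.4 CPM (log2 change 4.51, SE 0.28, adjusted p 5.88e-06). Spp1 (log2 change 0.21, adjusted p 0.460) and Mt1 (log2 change -0.10, adjusted p 0.860) did not pass the test, and Mir290a had no count in the 8 libraries.

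Formative genes, which mark the state after naive pluripotency, rose in 8 of 15 tested members. Dnmt3b, a DNA methyltransferase, went from 14.0, 14.0, 54.1 and 37.7 to 159, 93.3, 186 and 78.8 CPM (log2 change 2.31, SE 0.23, adjusted p 7.31e-05), and Lef1, a Wnt effector, from 3.64, 6.99, 6.80 and 11.3 to 28.5, 30.9, 30.2 and 44.4 CPM (log2 change 2.31, SE 0.26, adjusted p 1.66e-04). Otx2, a homeobox factor of the epiblast, stayed low, at 4.87, 2.31, 7.88 and 4.64 CPM late, with a late to early ratio of 18.1 (counting interval 5.92 to 89.9, adjusted p 0.00684, 0.0619 without D1 replicate 1). Pou3f1, also called Oct6, had 6.67, 4.19, 7.40 and 5.27 CPM early and 3.41, 13.9, 1.75 and 3.31 CPM late (log2 change -0.60, adjusted p 0.463). Fgf5, the standard marker of primed cells, did not pass the filter on low values.

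Nodal signalling, which pluripotent cells use on each other, changed in most of its measured parts: 8 of 11 tested members were higher and 1 was lower. The ligand Nodal itself rose from 4.25, 2.10, 15.1 and 10.5 to 18.003, 17.7, 24.3 and 17.9 CPM (log2 change 1.54, SE 0.30, adjusted p 0.00352, 0.0877 in the pooled-day fit). Its co-receptor Tdgf1, also called Cripto, had no count on D1 and rose to 118, 56.3, 175 and 90.1 CPM from 0, 0, 11.2 and 3.01 CPM (log2 change 7.62, SE 0.39, adjusted p 3.58e-06). The feedback inhibitors Lefty1 (0, 2.10, 4.14 and 1.51 to 28.0, 23.1, 17.3 and 12.6 CPM) and Lefty2 (0.303, 0, 6.51 and 0 to 75.7, 25.5, 44.0 and 38.4 CPM) were both higher in every late library. Foxh1, the transcription factor that carries the signal in the nucleus, rose from 0, 0, 2.37 and 1.51 to 17.8, 13.1, 15.5 and 12.6 CPM (log2 change 5.60, SE 0.62, adjusted p 2.20e-04). Furin, a protease that matures the ligand, was the member that fell (log2 change -1.17, SE 0.18, adjusted p 0.00103, 0.0802 without the replicate term).

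The FGF and ERK list moved both ways, with 4 of 20 members higher and 5 lower. The ETS factors Etv5 (71.6, 82.5, 112 and 137 to 289, 196, 270.0 and 203 CPM, log2 change 1.27, SE 0.20, adjusted p 0.00115) and Etv1 (8.49, 4.89, 18.9 and 11.3 to 39.2, 14.7, 35.5 and 26.5 CPM, log2 change 1.51, SE 0.26, adjusted p 0.00209) rose. Egr1, an immediate-early factor also driven by ERK, fell. It was at 164, 374, 97.0 and 205 CPM early and 15.6, 60.2, 12.7 and 62.3 CPM late, and no late library reached the lowest early one (log2 change -2.67, SE 0.24, adjusted p 3.52e-05). Fgf18 (log2 change -2.20, SE 0.30, adjusted p 5.28e-04) fell as well. Within the LIF and STAT3 list of 15, 5 members were higher and 5 lower. The kinase Pim1 was at 47.7 and 85.5 CPM on D0, 10.01, 28.7, 10.4 and 23.3 CPM early and 47.9, 43.2, 49.0 and 109.99 CPM late (log2 change 1.86, SE 0.28, adjusted p 8.33e-04). Socs3, the feedback inhibitor of the pathway, went the other way, at 20.3 and 26.5 CPM on D0, 127, 158, 208 and 337 CPM early and 79.3, 127, 67.4 and 109 CPM late (log2 change -1.08, SE 0.17, adjusted p 0.00116). Jak1 also fell (log2 change -0.96, SE 0.18, adjusted p 0.00336). FGF and ERK pathway members called lower numbered 3 without the replicate term and 3 without D7 replicate 2. LIF and STAT3 pathway members called lower numbered 3 without the replicate term and 3 without D1 replicate 1.

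Genes of the primitive streak, the site of early mesoderm and endoderm, were higher in 6 of 15 tested members and lower in 1. T, known as Brachyury, was at 0, 0, 12.1 and 2.26 CPM early and 41.1, 28.5, 45.5 and 22.5 CPM late, with no count on D0 (log2 change 5.96, SE 0.54, adjusted p 6.82e-05). Sox17, an endoderm factor, had 2 counts early and 10.5, 4.63, 16.2 and 17.9 CPM late, a late to early ratio of 61.6 (counting interval 16.8 to 514, adjusted p 4.29e-04). Fgf8 was at 0 in every early library and at 8.03, 6.94, 2.63 and 4.64 CPM late, at least 16.7-fold higher (adjusted p 0.00295). Sox17 and Fgf8 passed the filter on low values through the late group alone, which fixes their direction. Mixl1 went the other way. It was absent on D0, at 21.2, 22.4, 18.05 and 22.6 CPM early and at 9.97, 17.7, 4.38 and 3.98 CPM late, with the 2 D7 values the lowest (log2 change -1.48, SE 0.29, adjusted p 0.00368, 0.0591 in the pooled-day fit). Among Wnt targets 6 of 21 were higher and 2 lower. The homeobox gene Cdx1 rose from 2.73, 2.10, 12.7 and 3.01 to 56.0, 60.2, 60.9 and 44.4 CPM (log2 change 3.60, SE 0.33, adjusted p 4.16e-05) and Ccnd1, cyclin D1, fell from 429, 463, 371 and 395 to 160.1, 286, 89.1 and 153 CPM (log2 change -1.40, SE 0.20, adjusted p 5.83e-04). Axin2, the general feedback target of the pathway, was at 94.9, 114, 55.3 and 109 CPM early and 95.1, 99.5, 71.8 and 97.4 CPM late, against 4.82 and 8.11 CPM on D0 (log2 change -0.01, adjusted p 0.974).

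Germline genes are kept silent in body cells by methylated promoters. Of 32 listed, 22 passed the filter on low values, those silent early through the late group alone, and 19 of these were called higher. For 11 of the 19 the largest step lay between D5 and D7, a step that was largest for 340 of all 1699 genes called higher. Dazl, an RNA-binding protein of germ cells, had no count in any early library or in D5 replicate 2. It had 8.27, 0, 137 and 47.7 CPM in the 4 late libraries, at least 199.95-fold higher over the group (adjusted p 1.50e-04, 1 without D5 replicate 1). Rbmxl2, a testis splicing factor, was at 0.303, 0, 0.592 and 0.753 CPM early and 46.0, 30.9, 55.8 and 49.0 CPM late, high in all 4 (log2 change 6.80, SE 0.39, adjusted p 3.58e-06). Tdrd12, of the piRNA pathway, had 2 counts early and 24.8, 6.17, 49.9 and 39.8 CPM late, a ratio of 164 (counting interval 45.0 to 1355, adjusted p 4.89e-05). Morc1, a repressor of transposons in the male germline, rose from 0.303, 0, 2.96 and 0 to 52.3, 10.03, 64.6 and 36.4 CPM (log2 change 6.05, SE 0.50, adjusted p 2.62e-05), and Stag3, a meiotic cohesin subunit, from 3.94, 1.40, 3.85 and 0.753 to 9.25, 6.17, 28.5 and 21.9 CPM (log2 change 2.39, SE 0.40, adjusted p 0.00166). Hormad1, Slc25a31 and Fkbp6 were scarce: late, Hormad1 was at 3.89, 0, 23.6 and 3.98 CPM, Slc25a31 at 0.973, 0.771, 4.60 and 3.98 CPM and Fkbp6 at 1.70, 1.54, 13.1 and 3.98 CPM. Their early groups had 0, 0 and 1 counts. Adjusted p-values were 0.00213 for Hormad1 (1 without D5 replicate 1), 0.0198 for Slc25a31 (0.0581 without D7 replicate 2) and 0.00535 for Fkbp6 (0.0634 without D1 replicate 1). For Dazl and Hormad1, leaving out D5 replicate 1 left D5 with no count, so that day had no level to fit. Sycp3, Taf7l and Mov10l1 did not pass the filter on low values. Germline genes called higher numbered 9 to 12 without D1 replicate 1, D3 replicate 1, D5 replicate 1 or D7 replicate 1.

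One short sequence was common in the promoters of the listed germline genes, called or not. The E-box CACGTG, searched on both strands from 250 bases before to 50 after the start site in RefSeq promoters (build GRCm38.p6), was found for 14 of the 28 listed germline genes with a window (50%). It was found for 8.09% of all 27025 genes with a window and 11.98% of the genes tested here. Such a match describes the letters and does not show that a factor binds. Of 3 called members, 100 bases that begin 100 to 120 bases before the start site are printed 5′ to 3′ on the strand of the gene, with each CACGTG in capitals. They are Hormad1 (chr3:95559577-95559676, plus strand), Slc25a31 (chr3:40708761-40708860, plus strand) and Fkbp6 (chr5:135350065-135350164, minus strand).
Hormad1: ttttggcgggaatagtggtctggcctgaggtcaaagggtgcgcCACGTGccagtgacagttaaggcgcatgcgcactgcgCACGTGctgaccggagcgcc
Slc25a31: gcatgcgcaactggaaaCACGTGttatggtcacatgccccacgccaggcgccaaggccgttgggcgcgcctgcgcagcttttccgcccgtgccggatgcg
Fkbp6: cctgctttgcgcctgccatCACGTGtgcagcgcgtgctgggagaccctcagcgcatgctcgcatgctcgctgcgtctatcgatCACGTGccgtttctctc
Hormad1 and Fkbp6 hold the E-box at 2 places in these stretches, and Slc25a31 at 1.

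Among enzymes and readers of DNA methylation, 6 of 12 tested members were higher. Dnmt3l, the catalytically inactive partner of the de novo enzymes, was at 0, 0, 1.18 and 0 CPM early and 22.4, 10.03, 71.8 and 36.4 CPM late (log2 change 7.39, SE 0.53, adjusted p 1.97e-05). Tet1, which oxidises methylcytosine, rose from 10.01, 7.69, 19.8 and 12.05 to 198, 27.8, 192 and 121 CPM, with D5 replicate 2 far below the other late libraries (log2 change 3.42, SE 0.37, adjusted p 1.29e-04). Uhrf1, which guides maintenance methylation, rose from 123, 153, 130.2 and 88.1 to 237, 235, 239.5 and 269 CPM (log2 change 0.98, SE 0.19, adjusted p 0.00353), while Dnmt3a, at 122, 111, 159 and 193 and 157, 132, 147 and 138 CPM, did not pass the test (log2 change -0.01, adjusted p 0.977).

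Genes of the 2-cell embryo, transcribed in rare stem cells that revert towards that stage, gave no call. edgeR called 0 of the 10 tested members, with 2 at an unadjusted p under 0.05, and DESeq2 called 0 and limma-voom 1. Zscan4c was at 0.607, 0, 0.592 and 0 CPM early and 0, 0.771, 14.9 and 9.94 CPM late, Zscan4f at 1.82, 0, 1.18 and 0 and 0.487, 0.771, 28.7 and 15.2 CPM, and Zscan4e at 2.43, 1.40, 0 and 0 and 0.243, 0, 15.98 and 6.63 CPM. In each, both D7 libraries were above all the others. The Zscan4 copies are near-identical and their counts may be split between them.

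Among chromatin regulators, Polycomb subunits were higher in 13 of 31 members and lower in 1. The lower member lost its call without the replicate term and in the pooled-day fit. Ezh2, the methyltransferase of PRC2, went from 52.8, 51.0, 64.8 and 35.4 to 127, 94.1, 149 and 119 CPM (log2 change 1.24, SE 0.19, adjusted p 0.00101). Its alternative Ezh1 rose from 5.76, 8.39, 6.21 and 12.8 to 23.8, 17.0, 36.8 and 25.2 CPM (log2 change 1.71, SE 0.33, adjusted p 0.00339). The accessory subunits Jarid2 (74.0, 48.9, 131 and 109 to 238, 134, 295 and 186 CPM, log2 change 1.26, SE 0.18, adjusted p 6.07e-04) and Epop (19.7, 17.5, 63.6 and 42.9 to 145, 201, 103 and 111 CPM, log2 change 2.07, SE 0.21, adjusted p 9.56e-05) rose too, and both were higher on D3 than on D1. In PRC1, Cbx7, the chromodomain subunit typical of stem cells, rose from 8.49, 11.9, 7.40 and 9.04 to 58.4, 25.5, 73.1 and 49.0 CPM (log2 change 2.51, SE 0.30, adjusted p 2.41e-04) and Phc1 from 45.8, 44.7, 64.8 and 70.03 to 142, 103, 147 and 161 CPM (log2 change 1.30, SE 0.18, adjusted p 6.33e-04). Bmi1 (log2 change -0.37), Cbx8 (-0.34) and Pcgf3 (-0.40) did not pass the test. NuRD subunits were higher in 3 of 13 members. Of 20 factors that silence retroviruses and repeats, 6 were higher, among them Trim28, the scaffold of zinc-finger repression, at 386, 461, 662 and 494 CPM early and 1074, 1126, 869 and 874 CPM late (log2 change 0.97, SE 0.18, adjusted p 0.00294). Polycomb subunits called higher numbered 8 without D1 replicate 1. NuRD subunits called higher numbered 0 without the replicate term and 0 to 1 without D1 replicate 1, D1 replicate 2, D3 replicate 2, D7 replicate 1 or D7 replicate 2. Retrovirus and repeat silencing factors called higher numbered 3 without the replicate term and 2 to 3 without D1 replicate 1 or D7 replicate 2.

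Epithelial genes rose in part. Of 11 tested regulators 7 were higher and 1 lower, and of 25 junction genes 9 were higher. Epcam, an adhesion molecule of epithelia and stem cells, was at 1.21, 3.49, 22.8 and 8.28 CPM early and 123, 50.1, 142 and 105 CPM late (log2 change 4.23, SE 0.34, adjusted p 2.44e-05). Elf3 rose from 0.910, 0, 3.85 and 0.753 to 49.4, 13.9, 73.3 and 56.3 CPM (log2 change 5.24, SE 0.42, adjusted p 2.01e-05) and Grhl2 from 0, 0.699, 3.55 and 2.26 to 13.6, 8.49, 18.2 and 9.94 CPM (log2 change 3.85, SE 0.58, adjusted p 9.17e-04). Esrp1, the epithelial splicing factor, had 1 count early and 17.3, 3.86, 17.1 and 5.30 CPM late, a ratio of 133 (counting interval 23.6 to 5290.0, adjusted p 2.67e-04). Its relative Esrp2 fell, from 43.1, 25.9, 52.4 and 129.5 to 20.9, 41.7, 9.85 and 5.96 CPM, after 8.68 and 16.2 CPM on D0 (log2 change -1.81, SE 0.34, adjusted p 0.00344, 0.0652 in the pooled-day fit). Cdh1, E-cadherin, was at 17.8 and 12.5 CPM on D0, 111, 76.9, 132 and 123 CPM early and 161, 109.5, 203 and 162 CPM late (log2 change 0.50, adjusted p 0.0547).

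Keratin and desmosome genes were lower late in 6 of 14 members and higher in 2. Of the 6 that fell, D0 lay below the early group by more than 2-fold in 5, as it did for 21.9% of all genes called lower. Dsp, desmoplakin, was at 17.4 and 17.7 CPM on D0, 201, 333, 161 and 285 CPM early and 119, 113, 124 and 154 CPM late, with no overlap of the groups (log2 change -0.90, SE 0.19, adjusted p 0.00679, 0.0507 without D7 replicate 2). Jup, plakoglobin, followed with 164 and 259 CPM, then 509.9, 794, 307 and 652 CPM and 188, 419.7, 148 and 146 CPM, where D5 replicate 2 overlapped the early values (log2 change -1.38, SE 0.22, adjusted p 0.00117). Krt19, a simple-epithelium keratin, ran from 43.4 and 59.0 to 178, 201, 239 and 185 and 46.5, 197, 42.9 and 66.3 CPM (log2 change -1.46, SE 0.33, adjusted p 0.00802, 0.0584 without the replicate term). Dsg2, a desmosomal cadherin of stem cells, rose instead, from 10.6, 7.69, 22.5 and 22.6 to 76.6, 22.4, 78.6 and 74.9 CPM (log2 change 2.08, SE 0.30, adjusted p 6.95e-04). Keratin and desmosome genes called lower numbered 3 without the replicate term, 3 in the pooled-day fit and 3 without D1 replicate 1, D3 replicate 1 or D7 replicate 2.

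**Figure D3:**
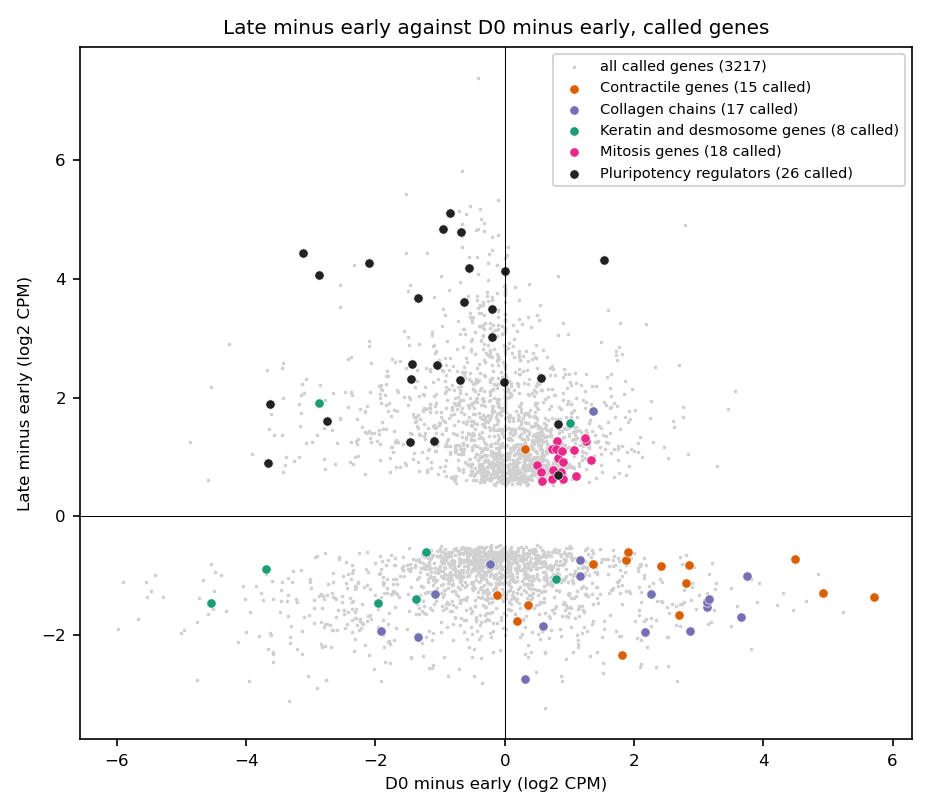
Late minus early difference (vertical axis) against D0 minus early difference (horizontal axis), both as differences of mean log2 CPM with a prior count of 2, for the genes called in the comparison, with members of 5 lists in colour. Most called contractile and collagen genes lie at the lower right (D0 above early, late below early), most called keratin and desmosome genes at the lower left, and mitosis genes above 0. Both axes subtract the same early libraries, so the 2 differences are related by construction, and of all genes tested D0 was more than 2-fold above early in 8.43% and below in 11.997%.

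Fibroblast genes fell. Of 17 tested fibroblast markers 12 were lower and 1 higher, and of 32 mesenchymal regulators 12 were lower and 1 higher. Thy1, the surface antigen used to follow the loss of fibroblasts, was at 54.0, 52.4, 18.6 and 18.8 CPM early and 11.7, 12.3, 9.63 and 11.3 CPM late, after 198 and 149.6 CPM on D0 (log2 change -1.52, SE 0.23, adjusted p 8.13e-04). Endoglin (Eng), a TGF-beta co-receptor, fell from 375, 329.9, 97.3 and 123 to 30.2, 84.9, 46.9 and 57.6 CPM (log2 change -1.94, SE 0.25, adjusted p 4.15e-04). Prrx1, a limb mesenchyme factor, went from 141, 194, 69.5 and 129.5 to 52.3, 69.4, 46.4 and 82.2 CPM (log2 change -1.05, SE 0.18, adjusted p 0.00189). Foxc2 fell from 139, 120.2, 47.0 and 61.0 to 13.1, 33.2, 6.13 and 5.96 CPM, with both D7 libraries lowest (log2 change -2.88, SE 0.28, adjusted p 6.40e-05), and Tbx15 from 57.9, 62.9, 45.0 and 52.7 to 14.1, 15.4, 5.04 and 10.6 CPM (log2 change -2.41, SE 0.24, adjusted p 6.93e-05). Several inducers of mesenchymal transition did not pass the test: Twist1 was at 47.3, 65.0, 33.7 and 47.4 CPM early and 27.2, 69.4, 40.1 and 92.8 CPM late (adjusted p 0.776), Snai1 at 29.1, 58.0, 24.6 and 46.7 and 29.7, 60.9, 30.7 and 52.3 CPM (adjusted p 0.650), and Zeb1 at 72.5, 52.4, 32.5 and 42.2 and 26.3, 27.0, 38.1 and 39.1 CPM (adjusted p 0.0571). Fibroblast markers called lower numbered 6 in the pooled-day fit. The fibroblast marker called higher lost its call there and without the replicate term. The mesenchymal regulator called higher lost its call without the replicate term. Mesenchymal regulators called lower numbered 7 without the replicate term and 5 to 6 without D1 replicate 1 or D3 replicate 1.

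Contractile genes were lower in 14 of 27 tested members and higher in 1. For 11 of the 14, D0 lay more than 2-fold above the early group, as it did for 15.5% of all genes called lower and 8.43% of all genes tested. Acta2, smooth muscle actin, was at 4512 and 4858 CPM on D0, 147, 314, 37.3 and 34.6 CPM early and 15.8, 60.9, 19.5 and 69.6 CPM late. Its D5 and D7 replicate 2 values were above the D3 values, so the groups overlapped (log2 change -1.44, SE 0.30, adjusted p 0.00535, 0.1505 without the replicate term, 0.0571 in the pooled-day fit). Cald1, caldesmon, was clearer, at 505, 465, 212 and 194 and then 85.2, 103, 101 and 107 CPM (log2 change -1.69, SE 0.17, adjusted p 9.32e-05). Myh11, smooth muscle myosin heavy chain, fell from 24.9, 14.7, 12.4 and 12.05 to 4.62, 3.86, 1.09 and 1.33 CPM (log2 change -2.82, SE 0.39, adjusted p 5.39e-04). Synm, an intermediate filament protein (34.0, 29.4, 26.0 and 34.6 to 8.76, 11.6, 6.35 and 7.95 CPM, log2 change -1.90, SE 0.25, adjusted p 4.47e-04), and Fhl1, a LIM-domain protein (307, 185, 259 and 326 to 115, 170.5, 80.8 and 76.2 CPM, log2 change -1.36, SE 0.22, adjusted p 0.00148), were within 2-fold of D0 early. Srf, the factor that drives this programme, did not pass the test, at 38.5, 54.5, 40.8 and 61.0 and 41.1, 62.5, 35.2 and 57.6 CPM (log2 change -0.02, adjusted p 0.957). Contractile genes called lower numbered 5 without the replicate term, 9 in the pooled-day fit and 8 to 9 without D1 replicate 1, D1 replicate 2, D7 replicate 1 or D7 replicate 2.

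The CArG box, the sequence that SRF reads, was found in the promoter windows of 7 of 25 contractile genes (28%). It was found for 1.55% of the genes tested and 1.81% of all genes with a window. The list was drawn up to include SRF targets, called or not, so this excess is built in. Among all called genes the box was found for 2.09% of those lower late and 1.85% of those higher. Stretches of 100 bases from 3 called members are printed 5′ to 3′ on the strand of the gene, with the CArG box in capitals, to show where it lies. They begin 120, 100 and 200 bases before the start site: Fhl1 is shown from chrX:56779563-56779662, Cnn2 (calponin 2) from chr10:79988500-79988599 and Myl9 (a myosin light chain) from chr2:156775264-156775363, all on the plus strand.
Fhl1: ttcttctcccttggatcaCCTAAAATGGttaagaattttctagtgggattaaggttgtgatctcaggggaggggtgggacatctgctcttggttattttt
Cnn2: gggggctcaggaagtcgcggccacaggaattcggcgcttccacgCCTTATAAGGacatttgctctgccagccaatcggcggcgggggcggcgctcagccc
Myl9: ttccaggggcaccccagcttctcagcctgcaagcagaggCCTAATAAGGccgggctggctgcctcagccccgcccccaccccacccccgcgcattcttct
Cnn2 went from 167, 267, 109 and 149.9 to 49.9, 166, 63.1 and 131 CPM (log2 change -0.86, SE 0.22, adjusted p 0.0148, 0.263 without the replicate term, 0.0705 to 0.0853 without D1 replicate 1, D3 replicate 1 or D7 replicate 1) and Myl9 from 22.1, 47.5, 9.47 and 15.1 to 6.81, 19.3, 6.79 and 19.9 CPM (log2 change -0.80, SE 0.26, adjusted p 0.0459, 0.380 without the replicate term, 0.120 in the pooled-day fit, 0.0916 to 0.193 without D1 replicate 1, D1 replicate 2, D3 replicate 1, D5 replicate 1, D7 replicate 1 or D7 replicate 2), against D0 values of 828 and 936 and 418 and 514 CPM.

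Targets of YAP, the co-activator that reads cell tension, were lower in 10 of 24 members and higher in 1. The higher member lost its call without the replicate term and in the pooled-day fit. Ccn1, also called Cyr61, stood at 1290.4 and 1518 CPM on D0, 126, 259, 107 and 139 CPM early and 21.9, 103, 24.3 and 103 CPM late, where both replicate 2 values were above both replicate 1 values (log2 change -1.63, SE 0.29, adjusted p 0.00233, 0.143 without the replicate term). Nuak2, a kinase, fell from 90.1, 85.3, 79.6 and 73.8 to 15.6, 27.8, 9.41 and 15.9 CPM (log2 change -2.41, SE 0.24, adjusted p 7.31e-05) and the receptor Axl from 139, 269.8, 34.0 and 73.8 to 21.4, 54.0, 28.7 and 34.5 CPM (log2 change -1.58, SE 0.21, adjusted p 5.01e-04). Ccn2, at 37.3, 102, 74.6 and 94.1 and 36.7, 66.3, 33.7 and 78.8 CPM (adjusted p 0.0838), and Yap1 itself, at 171, 161, 182 and 182 and 179, 134, 159 and 156 CPM (adjusted p 0.522), did not pass. YAP targets called lower numbered 6 without the replicate term and 6 without D1 replicate 1. The TEAD motif GGAATG was found for 12 of 18 YAP targets with a window (66.7%), against 14.3% of the genes tested. The list was drawn up from targets of YAP and TEAD, so this excess is built in. Among all called genes the motif was found for 16.5% of those lower late and 15.2% of those higher. Ccn1 (chr3:145650036-145650135) and Ankrd1, a muscle ankyrin repeat protein (chr19:36119945-36120064), both on the minus strand, are shown from 150 to 50 and from 220 to 100 bases before the start site, with the motif in either orientation in capitals (CATTCC is its reverse complement).
Ccn1: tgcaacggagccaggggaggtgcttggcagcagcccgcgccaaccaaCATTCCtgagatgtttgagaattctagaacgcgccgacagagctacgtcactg
Ankrd1: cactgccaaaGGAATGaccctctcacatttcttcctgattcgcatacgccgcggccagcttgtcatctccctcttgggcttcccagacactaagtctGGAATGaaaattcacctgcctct
Ankrd1 was at 8.19, 24.5, 4.73 and 11.3 CPM early and 1.22, 10.03, 1.09 and 9.28 CPM late (log2 change -1.50, SE 0.44, adjusted p 0.0296, 0.365 without the replicate term, 0.0508 to 0.121 without D1 replicate 1, D1 replicate 2, D3 replicate 1, D5 replicate 1 or D7 replicate 1).

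Collagen chains were lower in 16 of 24 tested members and higher in 1, and other matrix and crosslinking genes lower in 18 of 38 and higher in 4. Col1a2, a chain of type I collagen, went from 3996 and 3610.3 CPM on D0 to 718, 817, 251 and 244 CPM early and 139, 194, 104 and 182 CPM late (log2 change -1.55, SE 0.19, adjusted p 2.83e-04). The fibril-regulating Col5a1 fell from 266, 439.6, 91.4 and 182 to 40.6, 58.6, 41.4 and 87.5 CPM (log2 change -1.96, SE 0.18, adjusted p 4.81e-05), and Col27a1, at 30.4 and 20.6 CPM on D0, from 96.1, 84.6, 97.9 and 111 to 27.7, 47.8, 13.8 and 20.5 CPM (log2 change -2.01, SE 0.22, adjusted p 1.33e-04). Bgn, the proteoglycan biglycan, was at 1793, 2034, 482 and 669 and then 184, 449, 168 and 261 CPM (log2 change -2.09, SE 0.21, adjusted p 8.53e-05), and Tnc, tenascin C, at 158, 224, 57.1 and 111 and then 32.8, 32.4, 30.4 and 46.4 CPM (log2 change -1.80, SE 0.20, adjusted p 1.66e-04). Col3a1 did not pass, at 65.5, 55.2, 67.7 and 54.2 CPM early and 66.9, 63.3, 81.2 and 72.2 CPM late, against 569 and 358 CPM on D0 (adjusted p 0.440). Fn1, fibronectin, did not pass either (log2 change -0.30, adjusted p 0.300). The 4 matrix genes that rose, the prolyl hydroxylases P4ha1 and P4ha2 with Mfap2 and Tgfbi, all had D0 levels more than 2-fold above the early group. Lama1, a laminin chain of the first embryonic basement membranes, rose from 26.4, 21.7, 35.8 and 35.4 to 215, 74.1, 426 and 203 CPM (log2 change 2.77, SE 0.26, adjusted p 5.72e-05), whereas 7 of 24 basement membrane and integrin genes fell and 2 rose. Collagen chains called lower numbered 10 in the pooled-day fit. Matrix and crosslinking genes called higher numbered 1 without the replicate term, 2 in the pooled-day fit and 1 to 7 without D1 replicate 1, D1 replicate 2, D3 replicate 1, D5 replicate 1, D5 replicate 2, D7 replicate 1 or D7 replicate 2. Matrix and crosslinking genes called lower numbered 11 without the replicate term. Basement membrane and integrin genes called higher numbered 1 without D3 replicate 1 or D7 replicate 1. Basement membrane and integrin genes called lower numbered 2 without the replicate term, 3 in the pooled-day fit and 3 to 4 without D1 replicate 1, D1 replicate 2, D3 replicate 2, D7 replicate 1 or D7 replicate 2.

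Proteases and their inhibitors were lower in 11 of 20 members and higher in 1. The higher member lost its call without the replicate term and in the pooled-day fit. Prss23, a serine protease, fell from 172, 262, 37.3 and 82.8 to 12.7, 37.0, 6.57 and 16.6 CPM (log2 change -2.87, SE 0.22, adjusted p 1.92e-05), and Mmp14, a membrane-bound matrix metalloproteinase, from 436, 782, 398 and 692 to 163, 357, 105 and 166 CPM (log2 change -1.64, SE 0.17, adjusted p 1.12e-04). In the TGF-beta list 7 of 22 members fell and 3 rose. Inhba, an activin subunit, was at 21.2, 44.0, 6.80 and 21.1 CPM early and 3.89, 2.31, 4.60 and 3.31 CPM late (log2 change -2.26, SE 0.41, adjusted p 0.00265), and the receptor Tgfbr2 at 215, 213, 61.8 and 103 and 43.5, 74.8, 38.8 and 41.1 CPM (log2 change -1.47, SE 0.21, adjusted p 5.86e-04). In the BMP list 5 of 19 fell and 1 rose. The member that rose lost its call without the replicate term and in the pooled-day fit. Grem1, a secreted BMP antagonist, went from 48.5, 48.9, 32.2 and 44.4 to 18.003, 26.2, 11.6 and 11.9 CPM (log2 change -1.43, SE 0.22, adjusted p 9.27e-04). Proteases and inhibitors called lower numbered 4 without the replicate term, 7 in the pooled-day fit and 6 to 7 without D1 replicate 1, D3 replicate 1, D7 replicate 1 or D7 replicate 2. TGF-beta pathway members called higher numbered 0 without the replicate term and 1 without D1 replicate 1, D1 replicate 2 or D3 replicate 1. TGF-beta pathway members called lower numbered 4 without the replicate term. BMP pathway members called lower numbered 1 without the replicate term, 3 in the pooled-day fit and 2 to 3 without D1 replicate 1, D1 replicate 2, D5 replicate 1, D7 replicate 1 or D7 replicate 2.

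AP-1, the dimer of Fos and Jun proteins that acts at many fibroblast enhancers, was lower in several parts: 7 of 13 tested family members other than Jdp2 were lower. Fos was at 61.0, 102, 42.0 and 91.1 CPM early and 9.25, 23.1, 4.38 and 18.6 CPM late, against 35.7 and 28.7 CPM on D0 (log2 change -2.61, SE 0.25, adjusted p 5.72e-05). Junb was at 255, 515, 134 and 294 and 40.6, 218, 30.4 and 70.2 CPM, with D5 replicate 2 within the early range (log2 change -2.01, SE 0.24, adjusted p 2.67e-04). Fosl1 fell from 13.3, 29.4, 5.62 and 12.05 to 2.43, 8.49, 1.75 and 2.65 CPM (log2 change -1.99, SE 0.38, adjusted p 0.00344). Atf2 and Atf3 did not pass the test (log2 changes 0.42 and -0.01). The promoter windows of called lower genes held the AP-1 sequence TGANTCA in 6.62%, those of called higher genes in 5.62% and those of all tested genes in 5.71%. Inflammatory and secreted factors were lower in 8 of 15 members and higher in 1. The higher member lost its call without the replicate term and in the pooled-day fit. Csf1, the macrophage growth factor, fell from 142, 220.1, 62.7 and 76.1 to 26.3, 48.6, 18.6 and 37.1 CPM (log2 change -1.88, SE 0.20, adjusted p 1.01e-04) and Igfbp4, a binder of insulin-like growth factors, from 3674, 4672, 3537 and 3915 to 1390.2, 3072, 1101 and 1279 CPM (log2 change -1.32, SE 0.21, adjusted p 0.00122). AP-1 family members called lower numbered 4 without the replicate term and 3 without D1 replicate 1. Inflammatory and secreted factors called lower numbered 3 without the replicate term and 4 to 5 without D1 replicate 1 or D7 replicate 2.

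Many cell cycle genes rose. Of 24 mitosis genes 18 were higher late, with D0 more than 2-fold above the early group in 5. D3 to D5, the step with the most weight in the comparison, was the largest in all 18. Aurkb, a kinase of chromosome segregation, was at 58.8 and 79.6 CPM on D0, 39.4, 44.0, 24.3 and 15.1 CPM early and 64.2, 58.6, 76.0 and 82.2 CPM late (log2 change 1.25, SE 0.21, adjusted p 0.00155). Ccnb1, cyclin B1, had 166 and 138 CPM on D0, 106, 103, 90.5 and 57.2 CPM early and 257, 120.3, 236 and 179 CPM late (log2 change 1.13, SE 0.20, adjusted p 0.00228). Bub1b, of the spindle checkpoint, rose from 93.7, 66.4, 86.1 and 55.7 to 182, 107, 185 and 192 CPM (log2 change 1.13, SE 0.19, adjusted p 0.00169). In each of the 3 the D3 replicate 2 value was the lowest of the 8. Mki67, which encodes the Ki-67 antigen, overlapped between the groups at 348, 234, 199.99 and 163 and 417, 156, 359 and 409 CPM (adjusted p 0.144). Of 29 DNA replication genes 16 were higher and 1, Ccne1, was lower (log2 change -0.72, SE 0.19, adjusted p 0.0174, 0.0562 without the replicate term, 0.109 in the pooled-day fit, 0.0595 to 0.125 without D1 replicate 1, D3 replicate 1, D7 replicate 1 or D7 replicate 2). Mcm6, a subunit of the replicative helicase, rose from 143, 135, 123 and 79.8 to 264, 201, 249.6 and 246 CPM (log2 change 1.01, SE 0.18, adjusted p 0.00215), and Lig1, the ligase that joins Okazaki fragments, from 69.2, 62.2, 109.8 and 44.4 to 172, 145, 202 and 208 CPM (log2 change 1.35, SE 0.22, adjusted p 0.00162). Mitosis genes called higher numbered 7 without the replicate term and 7 to 11 without D1 replicate 1, D3 replicate 2 or D7 replicate 2. DNA replication genes called higher numbered 10 without the replicate term and 5 to 10 without D1 replicate 1, D7 replicate 1 or D7 replicate 2.

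Promoters of mitosis genes are known for a cell cycle homology region, TTTGAA, and a CCAAT box a little upstream. TTTGAA was found in the windows of 14 of 20 mitosis genes (70%) and 14.0% of the genes tested, and CCAAT in 16 of 20 (80%) and 43.6%. Among all called genes, CCAAT was found for 50.2% of those higher late and 38.2% of those lower. It was as common in some lists with few calls, at 17 of 17 cholesterol synthesis genes and 15 of 18 ER stress and amino acid response genes. The last 100 bases before the start site are printed for Kif11, a mitotic kinesin (chr19:37376282-37376381, plus strand), and Cdk1, the mitotic kinase (chr10:69352913-69353012, minus strand), with both motifs in capitals in either orientation (TTCAAA and ATTGG are the reverse complements).
Kif11: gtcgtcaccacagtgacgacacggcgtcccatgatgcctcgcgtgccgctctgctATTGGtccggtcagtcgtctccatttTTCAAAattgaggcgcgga
Cdk1: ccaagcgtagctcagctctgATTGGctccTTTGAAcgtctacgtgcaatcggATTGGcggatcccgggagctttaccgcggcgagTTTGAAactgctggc
Kif11 was at 85.2, 63.6, 65.1 and 36.1 CPM early and 175, 60.2, 155 and 125 CPM late (log2 change 1.02, SE 0.22, adjusted p 0.00683, 0.0710 without the replicate term, 0.0669 without D1 replicate 1 and 0.0553 without D7 replicate 2), and Cdk1 at 117, 81.1, 80.2 and 47.4 and 139, 106, 133 and 104 CPM (log2 change 0.60, SE 0.17, adjusted p 0.0259, 0.1504 without the replicate term, 0.0918 in the pooled-day fit, 0.0847 to 0.148 without D1 replicate 1, D1 replicate 2, D3 replicate 2, D7 replicate 1 or D7 replicate 2), against 113 and 101 and 177 and 119 CPM on D0.

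Targets of p53 and inhibitors of the cell cycle were lower in 7 of 23 members and higher in 3. Cdkn1a, which encodes p21, was at 471 and 548 CPM on D0, 807, 781, 949 and 1337 CPM early and 311, 744, 188 and 327 CPM late (log2 change -1.47, SE 0.22, adjusted p 9.03e-04). The growth inhibitor Cdkn1c, an imprinted gene, stood at 227 and 136, 861, 834, 1859 and 1892 and then 483, 1205, 338 and 335 CPM, with D5 replicate 2 still within the early range (log2 change -1.29, SE 0.24, adjusted p 0.00319, 0.0701 in the pooled-day fit). Ccng1, a p53 target, fell from 1077, 821, 599.7 and 586 to 340.1, 343, 299 and 371 CPM (log2 change -1.16, SE 0.18, adjusted p 0.00104), and Gdf15 from 23.7, 55.2, 26.3 and 35.4 to 9.002, 19.3, 8.76 and 15.9 CPM (log2 change -1.44, SE 0.24, adjusted p 0.00148). Trp53 itself was higher late, at 290.5, 292, 247 and 217 CPM against 132, 185, 135 and 130.3 CPM (log2 change 0.83, SE 0.18, adjusted p 0.00656, 0.0831 without D1 replicate 1 and 0.0512 without D7 replicate 1). Members of the p53 list called higher numbered 1 without the replicate term and 0 to 1 without D1 replicate 1, D1 replicate 2, D3 replicate 2, D7 replicate 1 or D7 replicate 2. Members of the p53 list called lower numbered 4 without D1 replicate 1 or D7 replicate 1.

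Glycolysis genes were higher in 14 of 23 tested members and lower in 1. Slc16a3, the lactate exporter MCT4, was at 58.3 and 73.7 CPM on D0, 20.9, 22.4, 12.4 and 6.02 CPM early and 100.5, 77.9, 254 and 182 CPM late (log2 change 3.26, SE 0.22, adjusted p 8.23e-06). The glucose transporter Slc2a3 was at 15.9 and 20.6 CPM on D0, 96.5, 76.9, 266 and 175 CPM early and 659.6, 334, 1033 and 712 CPM late (log2 change 2.21, SE 0.18, adjusted p 2.62e-05). Pfkl, a subunit of phosphofructokinase, was at 44.0, 65.0, 88.8 and 52.7 and then 248, 167, 426 and 373 CPM (log2 change 2.20, SE 0.22, adjusted p 9.14e-05), and Ldha, which makes lactate, at 547, 649, 584 and 504 and 1055, 845, 1515 and 1190.0 CPM (log2 change 0.97, SE 0.18, adjusted p 0.00300). Its counterpart Ldhb went the other way, from 397 and 359 CPM on D0 to 2046, 1467, 1949.9 and 2026 CPM early and 481, 1625, 297 and 435 CPM late (log2 change -1.71, SE 0.31, adjusted p 0.00265). D5 replicate 2 lay within the early range of Ldhb. Bnip3, a mitophagy receptor among the genes with the smallest adjusted p, was at 1.52, 1.40, 2.66 and 0.753 CPM early and 66.7, 13.1, 242 and 103 CPM late after 14.9 and 15.5 CPM on D0 (log2 change 5.75, SE 0.35, adjusted p 4.26e-06). Of 30 nuclear genes of the respiratory chain 7 were lower, but 1 under upper-quartile scaling. Ndufs1, of complex I, kept its call under that scaling and without the replicate term, at 276, 196, 227 and 197 and 157, 109.5, 118 and 81.5 CPM (log2 change -0.98, SE 0.17, adjusted p 0.00191). Glycolysis genes called higher numbered 9 without the replicate term and 7 to 9 without D1 replicate 1, D7 replicate 1 or D7 replicate 2. Respiratory chain nuclear genes called lower numbered 1 without the replicate term, 2 in the pooled-day fit and 1 to 23 without D1 replicate 1, D1 replicate 2, D3 replicate 1, D5 replicate 1, D5 replicate 2, D7 replicate 1 or D7 replicate 2.

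Among one-carbon genes, 10 of 18 members of the serine, glycine and threonine list were higher and 1 lower. The lower member lost its call without the replicate term and in the pooled-day fit. Gldc, the glycine decarboxylase, was at 1.45 and 2.95 CPM on D0, 14.0, 18.2, 32.0 and 42.9 CPM early and 101, 50.1, 165 and 144 CPM late (log2 change 2.16, SE 0.26, adjusted p 2.41e-04), and Amt, of the same glycine cleavage system, rose from 3.03, 3.49, 11.5 and 4.52 to 40.6, 42.4, 42.0 and 43.7 CPM (log2 change 2.98, SE 0.29, adjusted p 7.14e-05). Tdh, the threonine dehydrogenase characteristic of mouse stem cells, was at 0 and 1.47 CPM on D0, 146, 73.4, 351 and 261 CPM early and 377, 316, 182 and 144 CPM late (log2 change 0.38, adjusted p 0.153). Asns, asparagine synthetase, rose from 36.4, 35.6, 58.0 and 30.1 to 208, 149.7, 245 and 251 CPM (log2 change 2.39, SE 0.21, adjusted p 3.33e-05), while the chaperone Hspa5 did not pass, at 739.8, 586, 769.8 and 546 and 535, 606, 474 and 348 CPM (adjusted p 0.0951). edgeR called 0 of 29 cytosolic ribosomal protein genes, with 1 at an unadjusted p under 0.05 (0 by DESeq2, 0 by limma-voom). Among 24 cholesterol synthesis genes 2 were higher, Dhcr7 (log2 change 1.45, SE 0.24, adjusted p 0.00138) and Pmvk (log2 change 0.75, SE 0.24, adjusted p 0.0390, 0.0969 without the replicate term, 0.0602 in the pooled-day fit, 0.0599 to 0.256 without D1 replicate 1, D3 replicate 1, D3 replicate 2, D7 replicate 1 or D7 replicate 2). Cholesterol synthesis genes called higher numbered 1 without the replicate term, 1 in the pooled-day fit and 1 to 4 without D1 replicate 1, D3 replicate 1, D3 replicate 2, D5 replicate 1, D7 replicate 1 or D7 replicate 2. Of the Myc network 6 of 22 members rose: Mycl, a Myc relative of stem cells, from 1.82, 1.40, 3.55 and 6.78 to 12.2, 8.49, 14.7 and 21.2 CPM (log2 change 2.23, SE 0.41, adjusted p 0.00296), while Myc was at 72.8, 116, 33.7 and 64.0 and 29.2, 84.1, 30.4 and 31.1 CPM (adjusted p 0.0521). Serine, glycine and threonine enzymes called higher numbered 5 without D1 replicate 1. Myc network and targets called higher numbered 2 without the replicate term and 2 to 3 without D1 replicate 1, D3 replicate 2, D7 replicate 1 or D7 replicate 2.

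Imprinted genes, expressed from 1 parental copy, were higher in 5 of 20 members and lower in 4. Mest rose from 43.4, 49.6, 77.2 and 76.1 to 321, 196, 422 and 565 CPM, the highest values being on D7 (log2 change 2.57, SE 0.22, adjusted p 3.02e-05). Igf2 fell from 3061, 4143, 2735 and 3792 to 1154, 2795, 1072 and 2294 CPM (log2 change -1.03, SE 0.20, adjusted p 0.00432, 0.120 without the replicate term, 0.0582 without D7 replicate 1), and its neighbour H19, at 8199.9, 9467, 12018 and 12166 and 4034, 13509, 4135 and 7916 CPM, did not pass (adjusted p 0.0985). Among targets of the let-7 microRNA 5 of 16 were higher and 1 lower. Lin28a, which blocks let-7 maturation, rose from 0.303, 1.40, 12.4 and 3.77 to 104, 46.3, 72.9 and 57.0 CPM (log2 change 4.91, SE 0.37, adjusted p 1.92e-05), and Arid3b from 1.52, 2.10, 3.25 and 5.27 to 66.2, 31.6, 65.7 and 61.0 CPM (log2 change 4.42, SE 0.34, adjusted p 1.92e-05). Hmga2, the classic let-7 target, was at 758 and 935 CPM on D0, 178, 379, 139.6 and 185 CPM early and 209, 154, 210.2 and 252 CPM late (adjusted p 0.973). Hox genes, which hold positional identity, were lower in 7 of 30 tested members and higher in 2. Hoxd13 fell from 32.2, 28.0, 13.0 and 11.3 to 6.81, 6.94, 1.97 and 4.64 CPM (log2 change -2.12, SE 0.33, adjusted p 0.00115) and Hoxd10 from 22.7, 19.6, 14.2 and 17.3 to 1.95, 6.94, 3.50 and 5.30 CPM (log2 change -2.23, SE 0.38, adjusted p 0.00187). Imprinted genes called higher numbered 3 in the pooled-day fit and 3 without D1 replicate 1. Imprinted genes called lower numbered 1 without the replicate term, 2 in the pooled-day fit and 1 to 2 without D1 replicate 1 or D7 replicate 1. Hox genes called higher numbered 1 in the pooled-day fit and 0 to 1 without D1 replicate 1, D3 replicate 2 or D7 replicate 1. Hox genes called lower numbered 3 without the replicate term, 4 in the pooled-day fit and 3 to 4 without D1 replicate 1, D3 replicate 1, D7 replicate 1 or D7 replicate 2.

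Markers of other cell types that such cultures could hold were read in the same way. Macrophage markers were scarce, with a summed level of 15.5 to 34.5 TPM early and 13.45 to 31.7 TPM late, and 3 of 12 passed the filter on low values. edgeR called 0 of the 3, DESeq2 0 and limma-voom 1, with 1 at an unadjusted p under 0.05. No keratinocyte marker passed that filter (7.42 to 11.9 TPM early and 4.93 to 13.8 TPM late, 10 markers). The skeletal muscle list summed to 38.6 to 113 TPM early and 299 to 794 TPM late. Its member Mylpf, a fast muscle myosin light chain, was at 0.303, 0.699, 8.88 and 0 and 173, 102, 117 and 64.3 CPM (log2 change 6.28, SE 0.46, adjusted p 1.45e-05), and Tnnt3, a fast muscle troponin, at 26.7, 32.1, 19.2 and 15.8 and 3.16, 19.3, 3.28 and 5.30 CPM (log2 change -1.97, SE 0.42, adjusted p 0.00651), while Myod1 and Myog, which define the lineage, had no count in the 8 libraries. Of 12 tested endothelial markers 5 were higher and 1 lower; the largest rise was of Pecam1, which pluripotent cells also express, at 0.303, 0, 1.48 and 3.01 and 34.3, 9.26, 69.4 and 67.6 CPM (log2 change 5.85, SE 0.52, adjusted p 3.61e-05). Extraembryonic endoderm markers were mixed, with 6 of 13 higher and 3 lower. Gata4 rose from 3.64, 4.19, 1.78 and 1.51 to 15.1, 8.49, 29.1 and 21.2 CPM (log2 change 2.78, SE 0.36, adjusted p 4.09e-04), while Gata6 did not pass, at 13.0, 14.0, 13.9 and 18.8 and 21.4, 17.0, 26.9 and 21.9 CPM (adjusted p 0.126). Primordial germ cell markers were higher in 7 of 9 members, 4 of which stand in the lists above. Tfap2c rose from 2.73, 1.40, 10.1 and 7.53 to 38.9, 30.1, 44.7 and 36.4 CPM (log2 change 3.07, SE 0.27, adjusted p 3.33e-05) and the receptor Kit from 13.0, 6.99, 48.2 and 31.6 to 108, 62.5, 105 and 67.6 CPM (log2 change 2.08, SE 0.20, adjusted p 5.87e-05), whereas Prdm1, known as Blimp1, did not pass (adjusted p 0.119). The part of such markers in the other results was not tested. Endothelial markers called higher numbered 3 without the replicate term, 2 in the pooled-day fit and 1 to 3 without D1 replicate 1, D3 replicate 1, D5 replicate 1, D7 replicate 1 or D7 replicate 2. Extraembryonic endoderm markers called higher numbered 3 without D1 replicate 1. Extraembryonic endoderm markers called lower numbered 1 without the replicate term, 1 in the pooled-day fit and 0 to 1 without D1 replicate 1, D1 replicate 2, D3 replicate 2 or D7 replicate 2. Primordial germ cell markers called higher numbered 4 without D5 replicate 1.

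**Figure D4:**
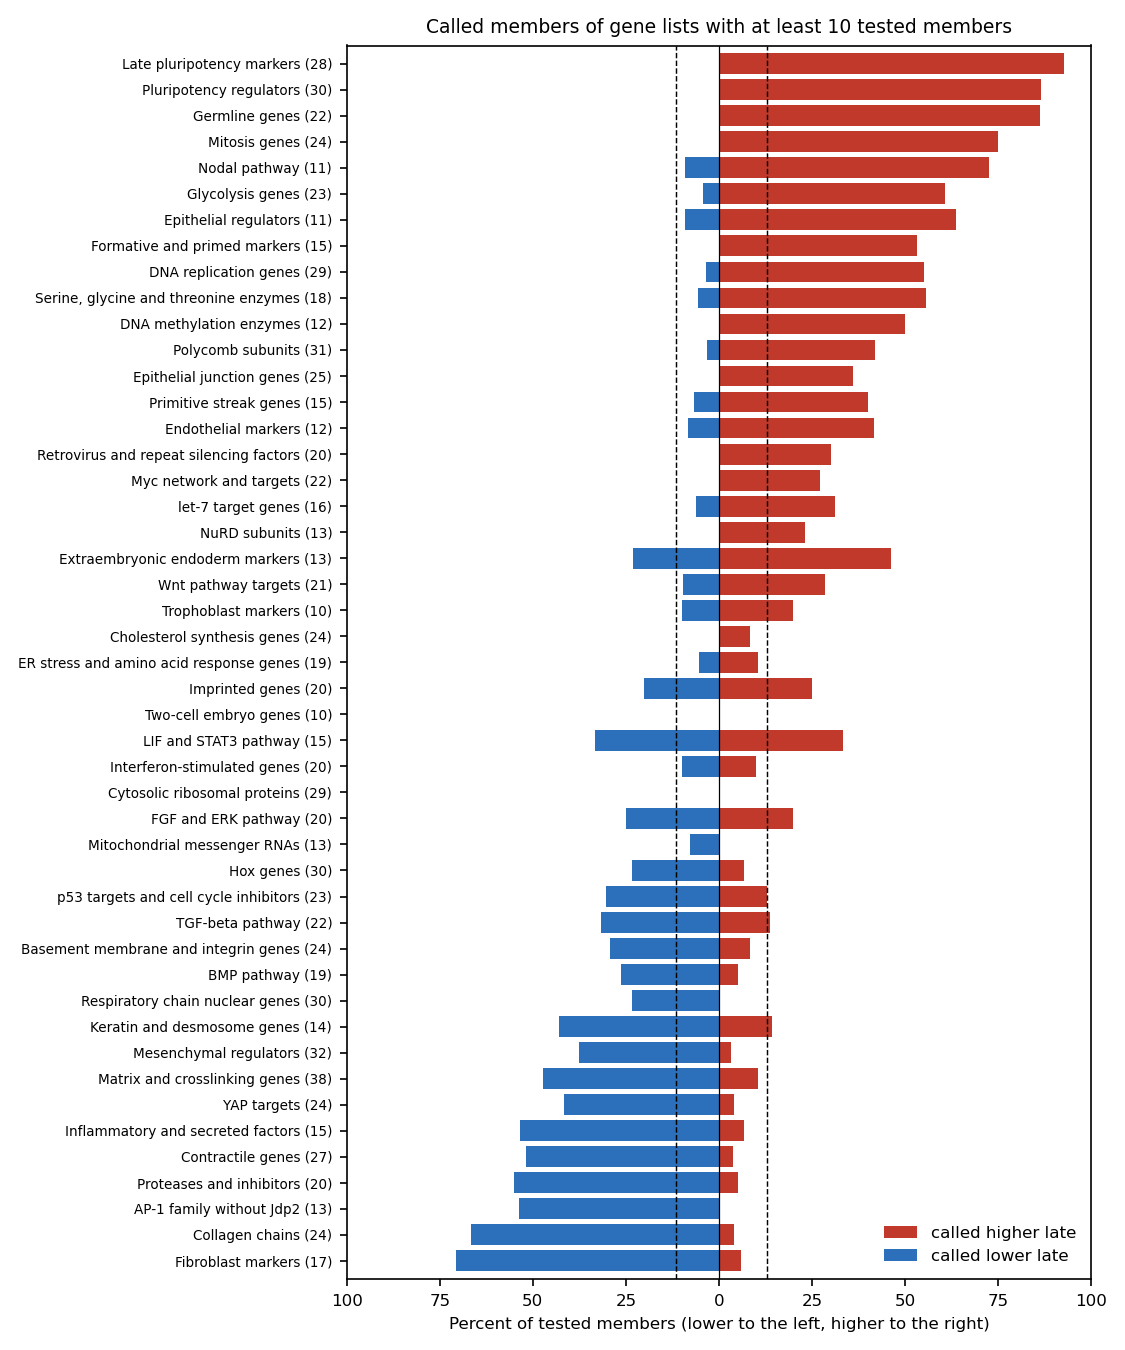
Percent of the tested members of each gene list with at least 10 tested members called higher (red, to the right) or lower (blue, to the left) late, with the number tested in brackets and dashed lines at the shares of all genes tested, 12.9% higher and 11.5% lower. Pluripotency, germline, mitosis and glycolysis lists extend to the right, and collagen, fibroblast, protease and AP-1 lists to the left.

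The plot of called shares by list sets these counts against the background shares. Some members of the late pluripotency, pluripotency regulator and germline lists passed the filter on low values through the late group alone. This fixes the direction of those members. The same holds for members at or near 0 early in other lists. Examples are Fgf8 and Sox17 (primitive streak), Esrp1 (epithelial regulators) and Cdx2 (trophoblast). The Wnt target and primordial germ cell lists also hold a called member at 0 early.

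Among all genes, the 12 largest rises by log2 change were of genes at or near 0 early. These passed the filter on low values through the late group alone, which fixes their direction. Besides Dazl, Trap1a, Zfp600, Tcl1 and Tex19.1, which stand in the lists, they were 2410141K09Rik, Gm10323, Pnma5, Zfp936, Gm49273, Xlr3c and Gm40977. Trap1a, an X-linked tumour antigen gene, had 1 count early and 36.5, 13.9, 53.9 and 53.7 CPM late, a ratio of 407 (counting interval 72.7 to 16098, adjusted p 1.95e-05). Pnma5, a gene of retrotransposon origin, had none early and 10.7, 7.71, 41.6 and 18.6 CPM late, at least 74.5-fold higher (adjusted p 1.12e-04). Xlr3c, of an X-linked lymphocyte-regulated family, had 8.52, 2.31, 28.0 and 18.6 CPM late, at least 53.1-fold higher (adjusted p 3.48e-04). Zfp936 and Zfp600 belong to the large zinc-finger family whose members share sequence. The 10 smallest adjusted p-values among rises included Gm37697 (2.73, 1.40, 13.9 and 1.51 to 267, 54.0, 231 and 84.8 CPM) and Vmn2r97 (6.98, 2.80, 17.2 and 3.77 to 188, 43.2, 189 and 92.1 CPM) beside genes already described.

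The 12 largest falls were of rarely counted genes, 3 of them processed pseudogenes. Those at or near 0 late passed the filter on low values through the early group alone, which fixes their direction. Gm10240 and Gm13370 have identical values in every library, so reads shared between near-identical copies cannot be assigned; they were counted in D1 replicate 2 and D3 replicate 1 only. Fnd3c2 was at 8.49, 9.08, 0.592 and 0.753 CPM early and had no count late, at least 17.8-fold lower (adjusted p 0.0135). Ip6k3, an inositol kinase, went from 6.07, 0.699, 3.25 and 4.52 to 0, 0, 0.219 and 0 CPM, an early to late ratio of 46.2 (counting interval 7.81 to 1874, adjusted p 0.00804). Falls with the smallest adjusted p-values were of abundant genes. Flnc, filamin C, an actin crosslinker, was at 1461 and 2258 CPM on D0, 1097, 1537, 471 and 981 CPM early and 154, 258, 106 and 228 CPM late (log2 change -2.44, SE 0.19, adjusted p 1.92e-05). Lrrc32, which anchors latent TGF-beta, fell from 501, 628, 189.9 and 310.3 to 31.9, 114, 17.95 and 33.8 CPM (log2 change -3.26, SE 0.25, adjusted p 1.92e-05), and Cyp26b1, which degrades retinoic acid, from 139, 261, 27.2 and 70.8 to 10.9, 20.8, 13.4 and 17.9 CPM (log2 change -2.57, SE 0.22, adjusted p 3.10e-05). Sema3c, a secreted semaphorin, went from 426, 426, 178 and 259 to 88.8, 99.5, 30.9 and 50.4 CPM (log2 change -2.33, SE 0.19, adjusted p 2.49e-05) and Map1a, a microtubule protein, from 177, 189, 79.3 and 145 to 32.4, 40.9, 19.05 and 17.9 CPM (log2 change -2.43, SE 0.21, adjusted p 3.52e-05). The groups did not overlap in any of these 5.

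D0 was set beside the comparison for the called genes. Of the 1518 genes called lower, D0 was more than 2-fold above the early group in 236 (15.5%), within 2-fold in 949 and more than 2-fold below in 333 (21.9%). Over all genes tested these shares were 8.43% above and 11.997% below. D0 minus early and late minus early subtract the same early libraries, and genes called lower were picked for high early values. An excess of D0 below early is therefore partly built in, as is one of D0 above early among genes called higher. Ryr1, a calcium release channel chosen after its values were seen, was at 3.38 and 2.95 CPM on D0, 199, 133, 338 and 437 CPM early and 92.5, 92.6, 48.8 and 47.0 CPM late (log2 change -1.94, SE 0.20, adjusted p 9.32e-05). Ass1, of the urea cycle, and Ngfr, a neurotrophin receptor, were chosen in the same way. Ass1 was at 443 and 462, 3898, 3448, 3983 and 5814 and then 1080.0, 2522, 394 and 578 CPM (log2 change -2.26, SE 0.24, adjusted p 1.01e-04), and Ngfr at 36.6 and 63.4, 752, 1006, 285 and 551 and 116, 285, 103 and 60.3 CPM (log2 change -2.21, SE 0.29, adjusted p 4.17e-04). The Wnt ligand Wnt6, of the fixed list, had the same course, at 67.0 and 36.9, then 287, 176, 338 and 321 and 60.6, 215, 43.1 and 61.0 CPM (log2 change -1.83, SE 0.34, adjusted p 0.00296). Of the 1699 genes called higher, D0 lay more than 2-fold above the early group in 161 (9.48%), within 2-fold in 1310 and more than 2-fold below in 228 (13.4%), shares near those of all genes tested. Stmn2, a microtubule regulator of the neural list, was at 15.4 and 17.0 CPM on D0, 2.43, 4.19, 12.7 and 3.77 CPM early and 74.0, 44.0, 69.4 and 66.3 CPM late (log2 change 3.62, SE 0.32, adjusted p 3.52e-05).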

How the data were processed

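Messenger RNA was sequenced in 10 libraries of which 8 enter the comparison; per the labels, every sample lists the same pair of library kits and pair of sequencing kits, so no kit is assigned to a library here. The submitters' processing notes name bcl2fastq, Bowtie2, RSEM and the mm10 build, without versions. Per the file headers, the authors deposited for each gene an RSEM expected count, a TPM value and an FPKM value; expected counts were rounded to whole numbers, TPM values were used for summed levels of lists and 1 alternative, and FPKM, though deposited, was left unused. Symbols, coordinates and gene types come from GENCODE M21 by Ensembl identifier, and promoter windows from RefSeq (GRCm38.p6).

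Genes with a minimum count of 10 by edgeR's rule for the days were kept, scaled by TMM and fitted in edgeR 4.0.16 (R 4.3.3) with a term per day and the replicate number as a block (3 residual degrees of freedom), with the quasi-likelihood F test of the mean of D5 and D7 against the mean of D1 and D3. Calls were made over 13203 genes at 0.05 after Benjamini-Hochberg adjustment. CPM values are scaled counts. Log2 CPM differences by replicate or against D0 use a prior count of 2, which understates changes of low genes. The labels describe replicates as separate experiments. The replicate number was used as a block for that reason and because the comparison was defined with it. The replicate difference correlated between days over genes in all 6 pairs of days (Pearson r 0.267 to 0.424). The replicates also differ in depth and fragment length on every day, so this correlation cannot tell paired cultures from a technical difference. Counts of the 2 replicates of each day differed beyond sampling noise (mean chi-square per gene 7.16 to 20.9).

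The comparison, the gene lists and the markers were chosen with earlier results of these data known. Every list member could be named, as could the 12 called genes with the largest change and the 10 with the smallest adjusted p in each direction; other genes are said to be chosen after their values were seen. Alternatives were a fit without the block, 1 term for D1 with D3 and 1 for D5 with D7, all 10 libraries, RLE and upper-quartile scaling, no filter, a minimum count of 30, DESeq2 1.42.0, limma 3.58.1 (voom, and on log2(TPM + 1)), thinning to the shallowest library, each replicate number alone and each library left out. Gene lists were described by counts and not tested as sets. Values of some list members are not reported here.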

Additional observations from a re-analysis of the deposited data

Results flagged for a closer look

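Among the early and among the late libraries, the library farthest from the other 3 was looked for in the level of every named gene and in each library measure. A library was listed where its gap to the nearest value exceeded the 95% limit of Dixon's test, set on the range of the 4. Of 426 groups of 4 tested, 51 had such a library, where chance alone gives about 1 in 20 for normally distributed values. That rate does not hold for low counts, because a gene counted in only 1 of the 4 libraries exceeds the limit at any level. In D3 replicate 1 such genes were Dnmt3l, Esrp1, Fgf4, Fkbp6, Nr5a2, Prdm14, Sox17, Tdrd12 and Trap1a, and in D7 replicate 1 Ip6k3. Each set also holds 2 days, so a course between the days can set a value apart as well. By library the 51 were 1 in D1 replicate 1, 2 in D1 replicate 2, 15 in D3 replicate 1, 2 in D3 replicate 2, 0 in D5 replicate 1, 20 in D5 replicate 2, 5 in D7 replicate 1 and 6 in D7 replicate 2.

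D5 replicate 2 stood apart as the highest of the late libraries for Cdkn1c (1205 CPM), Cebpa (30.1 CPM), Fosl1 (8.49 CPM), Igfbp4 (3072 CPM), Jup (419.7 CPM), Krt19 (197 CPM), Ldhb (1625 CPM), Lrrc32 (114 CPM), Mt1 (199 CPM), Myc (84.1 CPM), Pou3f1 (13.9 CPM), Spp1 (566 CPM), Tgfbr2 (74.8 CPM), Tnnt3 (19.3 CPM) and Wnt6 (215 CPM). D5 replicate 2 stood apart as the lowest of the late libraries for Arid3b (31.6 CPM), Bub1b (107 CPM), Dsg2 (22.4 CPM), Gm40977 (3.86 CPM) and Pcgf3 (64.0 CPM). D3 replicate 1 stood apart as the highest of the early libraries for Cdx1 (12.7 CPM), Dnmt3l (1.18 CPM), Dppa5a (4.44 CPM), Esrp1 (0.296 CPM), Fgf4 (1.18 CPM), Fkbp6 (0.296 CPM), Gm37697 (13.9 CPM), Lefty2 (6.51 CPM), Morc1 (2.96 CPM), Mylpf (8.88 CPM), Nr5a2 (2.96 CPM), Prdm14 (0.592 CPM), Sox17 (0.592 CPM), Tdrd12 (0.592 CPM) and Trap1a (0.296 CPM). D7 replicate 2 stood apart as the highest of the late libraries for Cbx8 (10.6 CPM), Fn1 (2339 CPM), Lef1 (44.4 CPM), Pim1 (109.99 CPM), Tnc (46.4 CPM) and Uhrf1 (269 CPM). D7 replicate 1 stood apart as the highest of the late libraries for Hormad1 (23.6 CPM), Ip6k3 (0.219 CPM) and Nodal (24.3 CPM). D7 replicate 1 stood apart as the lowest of the late libraries for Axin2 (71.8 CPM). D3 replicate 2 stood apart as the highest of the early libraries for Gata6 (18.8 CPM) and Zfp600 (1.51 CPM). D1 replicate 2 stood apart as the highest of the early libraries for Trp53 (185 CPM). D1 replicate 2 stood apart as the lowest of the early libraries for Ldhb (1467 CPM). D1 replicate 1 stood apart as the lowest of the early libraries for Trib3 (0 CPM). Of the library measures, the share of counts on genes annotated as ribosomal RNA stood apart in D7 replicate 1, at 0.887%.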

How the results depend on the processing

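No alternative in which a gene was tested reversed its direction among the 180 named genes with a call. Named genes that the filter of an alternative removed are not counted as lost below. Of the 3217 called genes, 449 were not tested at a minimum count of 30, 218 after thinning and 104 with all 10 libraries. With 1 library left out, up to 127 were not tested. Without the replicate block 1611 genes were called (968 higher, 643 lower), and 24 of the 180 lost the call. Replicate 1 alone gave 1306 genes (763 higher, 543 lower, 54 of the 180 lost), and replicate 2 alone, whose libraries are shallower, gave 20 (19 higher, 1 lower, 164 lost). A single term for D1 with D3 and for D5 with D7 gave 974 genes lower and cost 17 named calls. Limma on log2(TPM + 1) gave 2141 in all with 933 lower and cost 14. Leaving out 1 library in turn gave 1368 to 4684 genes (755 to 2426 higher, 613 to 2258 lower), and the named calls lost ranged from 0 without D5 replicate 2 to 18 without D1 replicate 1. Where that left a day with 1 library, its spread is assumed to be that of the other days. RLE scaling, no filter, all 10 libraries, a minimum count of 30, upper-quartile scaling, limma-voom, thinning to the shallowest library and DESeq2 each cost 0 to 8 of the named calls and kept the 3 counts within 1.5 times the values reported. The cause of these differences was not tested. Upper-quartile scaling moved the median of all genes from 0.02 to 0.10 (log2) and the calls to 1944 higher and 1257 lower, and the medians of the Wnt target, trophoblast and neural lists took the other sign under it. Within replicate 1 and within replicate 2 alone, the late minus early differences in the mitochondrial share and in the share of the delivered factors moved from the pooled difference by less than 1 SD between libraries. With libraries permuted within replicate numbers, the difference of -0.382 percentage points in the share of the delivered factors had an exact p of 0.0556. That permutation, and list counts without each library and by DESeq2 and limma-voom, were chosen after seeing the data. In the shallowest library 3 counts are 2.26 CPM of the total before scaling, so a level at or below about that is not told from 0.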

Other observations

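Several gene lists outside the accounts above were read in the same way. Of 20 tested interferon-stimulated genes, which act against viruses, 2 were higher late and 2 lower. Oas1a, an oligoadenylate synthetase, was at 4.25, 2.10, 5.03 and 2.26 CPM early and 18.5, 20.8, 13.4 and 7.95 CPM late (log2 change 2.02, SE 0.38, adjusted p 0.00325). B2m, the light chain of class I histocompatibility molecules, fell from 181, 205, 149 and 178 to 81.5, 173, 71.6 and 96.1 CPM (log2 change -0.85, SE 0.20, adjusted p 0.00969, 0.0877 without the replicate term, 0.0753 without D1 replicate 1 and 0.0509 without D7 replicate 1). Under upper-quartile scaling 4 of these genes were called higher and 2 lower. Interferon-stimulated genes called higher numbered 1 to 5 without D1 replicate 1, D3 replicate 2, D5 replicate 1 or D7 replicate 1. Interferon-stimulated genes called lower numbered 0 without the replicate term and 0 to 1 without D1 replicate 1, D3 replicate 1, D5 replicate 1, D7 replicate 1 or D7 replicate 2. Of 19 genes of the ER stress and amino acid response 2 were higher and 1 lower. Beside Asns, Trib3, a pseudokinase induced by amino acid shortage, rose from 0, 2.10, 2.37 and 2.26 to 12.9, 14.7, 7.44 and 13.9 CPM (log2 change 3.11, SE 0.59, adjusted p 0.00328). Sel1l, of ER-associated degradation, fell (log2 change -0.68, SE 0.18, adjusted p 0.0180, 0.0592 without the replicate term, 0.0507 to 0.109 without D1 replicate 1, D1 replicate 2, D3 replicate 2, D7 replicate 1 or D7 replicate 2). Among the 13 messenger RNAs of the mitochondrial genome 1 was called, mt-Nd4l, at 154, 223, 238 and 606 CPM early and 91.2, 95.7, 142 and 229 CPM late (log2 change -1.05, SE 0.21, adjusted p 0.00498, 0.0515 without the replicate term, 0.0750 in the pooled-day fit).

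The remaining markers of other cell types gave few calls. Trophoblast markers summed to 191 to 456 TPM early and 193 to 336 TPM late. Of 10 tested, Tfap2c and Cdx2 were higher and Krt7 lower. Cdx2, a trophectoderm factor, was at 0, 0, 0.888 and 0.753 CPM early and 15.1, 13.1, 5.91 and 7.95 CPM late (log2 change 5.56, SE 0.73, adjusted p 5.82e-04), and Krt7, a simple keratin, at 12.1, 17.5, 9.17 and 4.52 and 5.35, 8.49, 2.63 and 2.65 CPM (log2 change -1.30, SE 0.42, adjusted p 0.0409, 0.0856 without the replicate term, 0.124 in the pooled-day fit, 0.0970 to 0.305 without D1 replicate 1, D1 replicate 2, D3 replicate 1, D5 replicate 1, D7 replicate 1 or D7 replicate 2). Of 8 tested neural markers 2 were higher, Stmn2 and Tubb3, the latter from 1.21, 3.49, 1.48 and 3.01 to 17.0, 17.7, 28.0 and 15.2 CPM (log2 change 3.25, SE 0.44, adjusted p 5.25e-04), while Sox1, Pax6 and Neurog2 did not pass the filter on low values. Erythroid markers fell under that filter except Hba-a2, an alpha globin, at 13.0, 9.08, 6.51 and 6.02 and 1.46, 13.1, 0 and 4.64 CPM (adjusted p 0.122). Of 2 tested adipocyte markers Cebpa was lower, at 17.3, 16.8, 26.9 and 44.4 and 6.08, 30.1, 5.25 and 7.29 CPM (log2 change -1.39, SE 0.36, adjusted p 0.0158, 0.111 without the replicate term, 0.0761 in the pooled-day fit, 0.111 without D1 replicate 1 and 0.0603 without D3 replicate 1), and Lpl did not pass (adjusted p 0.0756).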
